A study of Homo sapiens with 4 samples.

Results

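The regions described are the distal sites listed for both full-length SOX2 and its DNA-binding domain alone (SOX2-DBD) whose seventh column in the SOX2 list is 0. They were selected on 2 readouts of these data, presence in both peak lists and the seventh column, and so were taken as rows present in both lists with the value 0, with exact duplicates counted once and the centre more than 1 kb from every transcript start of a protein-coding gene. This gave 8878 sites of the 58827 distinct intervals of the SOX2 and SOX2-DBD lists together (15.1%), of the 14300 shared intervals (62.1%) and of the 13578 shared distal intervals (65.4%). Binding was mapped by CUT&RUN, where an antibody-tethered nuclease cuts the DNA around a bound protein and the freed fragments are sequenced. V5-tagged SOX2 or V5-tagged SOX2-DBD had been expressed ectopically for 48 h in BJ fibroblasts, an established human foreskin line, and the same V5 antibody was used throughout. The labels give 2 samples per group and each list analysed belongs to replicate 1, which leaves every value without an error between replicates. The 4 samples analysed include none without an introduced V5 protein, and with no expression data here the fibroblast label was not checked against markers.

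SOX2 binds DNA through an HMG box that inserts into the minor groove and bends the helix, and it is known as a pioneer factor, able to engage its sites on nucleosomes. It maintains pluripotent and neural progenitor cells. The DNA-binding domain alone retains the HMG box without the transactivation region. AP-1, a dimer of FOS and JUN proteins, and TEAD, the DNA-binding partner of YAP, are factors known to act at enhancers of fibroblasts.

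The seventh column is a whole number from 0 to 6 that is given for shared rows, and its meaning is not given in the sources used here. Over the 14300 shared intervals it followed SOX octamers closely. The octamer AACAATGG was present in 543 shared intervals and none of them had the value 0. Of the octamers present in at least 200 shared intervals, 7 had the value 0 in under 12% of their intervals. They were AACAATGG (0%), GACAATGG (2.50%), AACAAAGG (2.75%), AACAATAG (6.44%), GACAAAGG (8.48%), AACAAAAG (8.90%) and GACAATAG (10.7%), each counted on both strands. At least 1 of these octamers lay in 230 of the 8878 sites (2.59%, Wilson 95% interval 2.28 to 2.94), against 63.6% of shared distal sites with the value 1, 85.3% of those with the value 2 or more and 33.3% of SOX2-only distal sites. The octamers were picked for being rare at the value 0, so their low share at these sites follows from that choice. They were also counted over whole intervals, of median width 340 bp at these sites, 420 bp at the value 1, 507 bp at 2 or more and 559 bp at SOX2-only distal sites. As the rule used this column, all SOX motif values here and below describe the choice of sites and support nothing about it. Wilson and Newcombe intervals reflect counting error alone, since sites of 1 list do not replicate a condition.

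The windows printed are the 200 bp at the centre of 3 of the 4 sites of highest total signal that hold an AP-1 match and lie outside exons, at most 1 per gene, and likewise of the 2 that hold a SOX core match and no AP-1 match. They are hg19 reference sequence on the plus strand. In the first 3 the capitals mark the AP-1 heptamer, TGACTCA or its reverse complement TGAGTCA, and in the last 2 the SOX core hexamer ACAAAG or ACAATG on either strand.
20.5 kb from the nearest AUH start, chr9:93962562-93962761: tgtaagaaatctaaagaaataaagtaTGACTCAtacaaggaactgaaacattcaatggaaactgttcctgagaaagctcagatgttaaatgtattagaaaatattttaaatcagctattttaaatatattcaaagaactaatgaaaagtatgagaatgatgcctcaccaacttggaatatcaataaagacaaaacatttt
115.0 kb from the nearest PMFBP1 start, chr16:72325723-72325922: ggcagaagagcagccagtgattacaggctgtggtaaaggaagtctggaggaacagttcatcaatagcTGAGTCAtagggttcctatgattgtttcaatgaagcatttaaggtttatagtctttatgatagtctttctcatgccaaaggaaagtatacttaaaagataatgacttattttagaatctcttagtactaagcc
LAMA2 intron, chr6:129352388-129352587: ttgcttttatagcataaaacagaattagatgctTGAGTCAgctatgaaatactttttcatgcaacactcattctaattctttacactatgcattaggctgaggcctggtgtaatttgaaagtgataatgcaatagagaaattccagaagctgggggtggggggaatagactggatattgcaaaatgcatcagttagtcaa
62.9 kb from the nearest OSBPL11 start, chr3:125377144-125377343: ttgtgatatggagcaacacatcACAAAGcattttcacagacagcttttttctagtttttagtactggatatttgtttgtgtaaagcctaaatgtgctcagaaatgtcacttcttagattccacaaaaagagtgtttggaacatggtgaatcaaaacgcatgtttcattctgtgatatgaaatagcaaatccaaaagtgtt
CSTPP1 intron, chr11:47105229-47105428: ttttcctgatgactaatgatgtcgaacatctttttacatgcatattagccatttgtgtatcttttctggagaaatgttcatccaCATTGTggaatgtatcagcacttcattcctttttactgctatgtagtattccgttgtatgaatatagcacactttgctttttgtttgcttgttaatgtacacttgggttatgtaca

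Each of the first 3 windows held 1 AP-1 match and 0 SOX core matches, and each of the last 2 held 1 SOX core match. The AUH, PMFBP1 and LAMA2 sites had total signals of 13504, 11089 and 10761 on the authors' scale. LAMA2 encodes a laminin chain of basement membranes. The OSBPL11 and CSTPP1 sites had total signals of 12861 and 11865. The widths of these 5 intervals ran from 686 to 1007 bp, all above the upper quartile of the sites (463 bp).

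AP-1 was the sequence most raised over the surroundings at these sites. The heptamer was found in 1543 of 8878 central windows (17.4%, Wilson 95% interval 16.6 to 18.2), in 2.96% (2.63 to 3.34) of windows 10 kb downstream and in 3.17% of windows 10 kb upstream. The central share exceeded the downstream share by 14.4 percentage points (Newcombe 95% interval 13.6 to 15.3), a ratio of 5.86. A single match was present in 1433 windows and at least 2 in 110. Across whole intervals, 2295 sites held an AP-1 match. Mean GC content was 35.1% in the central windows and 39.4% downstream.

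The AP-1 share was then compared with classes that have no interval in common with these sites. It was 16.6% (15.5 to 17.9) at shared distal sites with the value 1, 14.9% (12.9 to 17.1) at those with 2 or more, 6.57% (6.33 to 6.81) at SOX2-only distal sites and 14.9% (12.6 to 17.4) at SOX2-DBD-only distal sites. The sites with the value 0 exceeded SOX2-only distal sites by 10.8 percentage points (10.0 to 11.6). Against shared distal sites with a value of 1 or more the difference was 1.15 points (-0.18 to 2.45), an interval that includes 0. The interval lay above 0 with 100-bp windows (1.39 points, 0.38 to 2.37), for intervals of at least 50 bp (1.51, 0.17 to 2.83), with the same signal values counted once (1.44, 0.09 to 2.77), within bands of width (1.54, 0.005 to 3.08) and within bands of GC content (1.60, 0.31 to 2.89). It included 0 with windows at the region of maximum signal (0.05 points, -1.32 to 1.41) and with 400-bp windows (0.58 points). It also included 0 with only the value-0 class restricted to sites overlapping the down-sampled list (0.74 points). The same held beyond 5 kb of a start (1.06), beyond 1 kb of any gene's start (1.21) and with under 50% recurring 31-mers (1.19). With both classes above the median signal of the sites the difference was 0.83 points (-0.85 to 2.47), from 14.9% of 4437 sites against 14.1% of 2808. Over whole intervals, which are narrower at the value 0, it was -3.49 points (-5.09 to -1.91), from 25.9% against 29.3%. Against SOX2-DBD-only sites the difference was 2.53 points (-0.13 to 4.89).

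Because the seventh column is given for shared rows only, SOX2-only sites were also restricted to those without any of the 7 octamers. The difference in AP-1 share from these was 10.2 percentage points (9.38 to 11.1), beside the 10.8 points from all SOX2-only distal sites. Over whole intervals the difference from all SOX2-only distal sites was 10.2 points (9.26 to 11.2). Width differed between the classes, with a median of 340 bp (interquartile range 231 to 463) at the sites with the value 0 and 559 bp (436 to 741) at SOX2-only distal sites. Within bands of width the AP-1 difference was 8.57 points (7.05 to 10.1) and was positive in 9 of 9 bands. Within bands of both width and GC content it was 8.75 points (7.54 to 9.97) and positive in 32 of 36 bands. The region of maximum signal lay at least in part outside the interval in 29.9% of the sites and in 0% of SOX2-only distal sites. How the shared intervals were cut is not given in the sources used here.

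Among 15 motifs counted on both strands, TEAD and RUNX had the highest ratios to the surroundings after AP-1. The TEAD heptamer TGGAATG was found in 677 windows (7.63%, 7.09 to 8.20) against 3.81% downstream, a difference of 3.82 points (3.14 to 4.50). The RUNX heptamer TGTGGTT, bound by factors of haematopoiesis and bone formation, was found in 6.96% (6.45 to 7.51) against 4.05%, a ratio of 1.72. Both exceeded SOX2-only distal sites, TEAD by 1.68 points (1.10 to 2.29) and RUNX by 1.27 points (0.71 to 1.86). So did the NFI half-site TTGGCA, by 1.40 points (0.70 to 2.14), and the E-box CAGCTG, by 1.37 points (0.84 to 1.94). These differences were not taken within bands of width or GC content. Neither TEAD nor RUNX was separated from shared distal sites with a value of 1 or more, with differences of -0.06 points (-1.01 to 0.87) and 0.39 points (-0.52 to 1.26).

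Some other motifs were also more frequent than downstream, by smaller ratios. The C/EBP sequence TTGCNNAA was found in 14.7% against 11.99% downstream, the forkhead heptamer TGTTTAC in 4.56% against 3.57%, the NFI half-site TTGGCA in 11.4% against 10.1% and the POU octamer ATGCAAAT, bound by the SOX2 partner POU5F1, in 2.80% against 2.06%. The E-box CAGCTG did not differ from downstream beyond counting error (6.38% against 5.96%, difference 0.41 points, -0.29 to 1.12). Other sequences were less frequent than downstream, namely the homeobox sequence TAATTA (8.17% against 9.79%), the GC box GGGCGG (0.25% against 2.31%) and the ETS sequence CCGGAAG (0.16% against 0.45%). The cyclic AMP response element TGACGTCA, which differs from the AP-1 heptamer by an added central base, was found in 0.02% against 0.08%. That difference was within counting error (-0.06 points, -0.14 to 0.02), from 2 windows against 7.

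**Figure D1:**
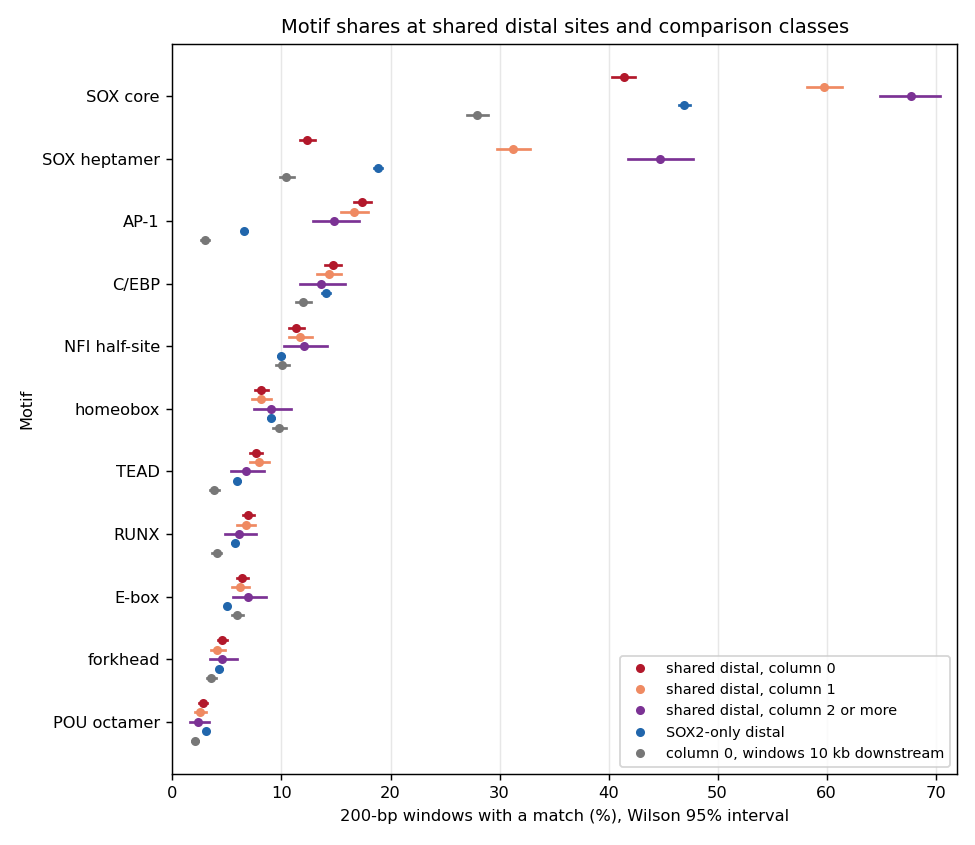
Share of 200-bp windows with a match (x axis, %) for 11 motifs (y axis), with Wilson 95% intervals as bars. Red points are the sites with the value 0, orange and purple points shared distal sites with higher values, blue points SOX2-only distal sites and grey points windows 10 kb downstream of the red sites. AP-1 stands at 17.4% in red against 6.57% in blue and 2.96% in grey, while the SOX heptamer is at 12.4% in red and 44.7% in purple.

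All 2080 hexamers, merged with their reverse complements, were ranked by the share of central windows that held them over the share of flanking windows on both sides. The first was GACTCA, present in 21.6% of central and 7.71% of flanking windows (ratio 2.80), and the next was GAGTCA with 22.4% and 8.29% (2.71). These are the overlapping parts of the AP-1 heptamer. AGTCAT (ratio 2.25), TAGTCA (2.07), ACTCAT (1.93), AGTCAC (1.91), GACTAA (1.88) and GTCATA (1.84) followed, and all of them share at least 4 bases in a row with an AP-1 heptamer. GAATGC (1.84) and CAATTG (1.76) completed the first 10. CATTCC, which lies within the TEAD heptamer, ranked 20 (1.67), and the SOX core hexamers ACAATG and ACAAAG ranked 22 (1.61) and 40 (1.51). The lowest of all was CGCGCC, at 0.05% of central and 1.48% of flanking windows.

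SOX core hexamers remained common at these sites in other contexts. ACAAAG or ACAATG was found in 3673 windows (41.4%, 40.4 to 42.4) against 28.0% downstream, compared with 59.8% at the value 1, 67.7% at 2 or more and 47.0% at SOX2-only distal sites. The heptamers AACAATG and AACAAAG were found in 12.4% against 10.5% downstream. Split by the base on each side, the most raised forms were TACAAAGC (ratio 3.02), GACAATGC (2.83), TACAATGG (2.63), CACAATGA (2.41) and AACAATGT (2.39). AACAATGG (0.12), GACAATGG (0.16), GACAAAGG (0.24) and AACAAAGG (0.29) were the most reduced, which restates the choice of the value 0. AACAATGG was in 11 central windows and in no interval of these sites, because a window can reach beyond a narrow interval.

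The presence of AP-1 was set against the other motifs of the same window. A SOX core match was present in 41.1% of the 1543 windows with AP-1 and in 41.4% of the 7335 without, a difference of -0.34 points (-3.02 to 2.37) that was within counting error. Both motifs were present in 634 windows (7.14%), AP-1 without a SOX core in 909 (10.2%), a SOX core without AP-1 in 3039 (34.2%) and neither in 4296 (48.4%). TEAD differed by -0.37 points (-1.72 to 1.16) between windows with and without AP-1. The E-box was more frequent beside AP-1, by 1.78 points (0.41 to 3.32). C/EBP (-2.42 points, -4.20 to -0.49) and the homeobox sequence (-1.57 points, -2.90 to -0.07) were less frequent. Mean GC content was 36.7% in windows with AP-1 and 34.8% in those without, and its part in these differences was not tested.

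AP-1 matches gathered at the centre of the intervals. Within 50 bp of the centre, 922 matches gave 1.04 per 1000 sites per bp, which was 5.44 times the density beyond 500 bp. The same ratio was 2.41 at SOX2-only distal sites. For TEAD it was 2.05 against 1.72, and for the SOX core 1.65 against 1.93, the one motif of the 3 that was lower at the sites with the value 0. With the region of maximum signal as origin, the AP-1 ratio was 5.92 at the sites and 3.02 at SOX2-only distal sites. Shared distal sites with higher values were not profiled in this way. Their central AP-1 share was 6.20 times the downstream share at the value 1 and 4.35 times at 2 or more, beside 5.86 at the value 0. A raised AP-1 share at the centre was thus not particular to the value 0.

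**Figure D2:**
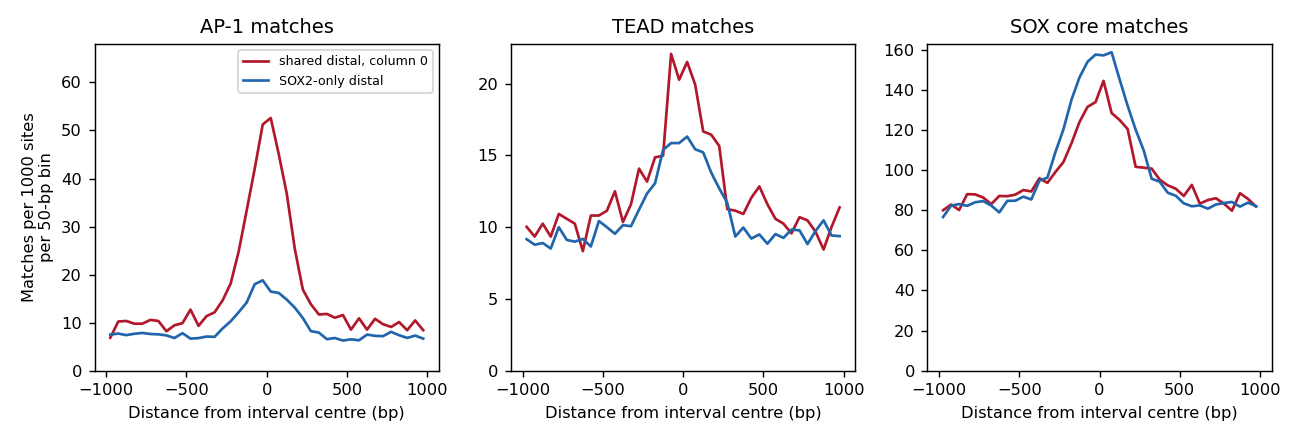
Matches per 1000 sites in bins of 50 bp (y axis) by distance from the interval centre in bp (x axis) for AP-1, TEAD and the SOX core. Red lines are the sites with the value 0 and blue lines SOX2-only distal sites. The red AP-1 line reaches 52.6 matches at the centre, where the blue line is at 18.8 at most, and the red SOX core line lies below the blue one at the centre.

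The authors' total signal of the sites ran from 1184 through a median of 2618 to 25122. Whether it was measured in the SOX2 or the SOX2-DBD library is not stated for shared rows, so it served mainly to rank sites within the class. It was also used to restrict both shared classes to sites above the median signal of the value-0 class. The total need not be that of the listed interval alone. At the DHX32 intron site it was 14090, with a width of 334 bp and a maximum signal of 11. At the site near FGF7 it was 6696, with 37 bp and a maximum of 19. Both totals exceed the width times the maximum, so ranks and bins by signal may not describe the listed intervals. The AP-1 share was lower among sites of high signal, at 19.3% (16.8 to 22.0) in the lowest of 10 bins, 21.7% in bins 3 and 5 and 12.05% (10.1 to 14.4) in the highest. The SOX core share stayed between 38.0% and 44.03% in all 10 bins. Without sites of which 50% or more of the 31-mers recur in the genome, of which the highest bin held 14, the lowest and highest bins had AP-1 shares of 19.6% and 12.2%.

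Width gave a different pattern. The AP-1 share was 9.81% in the narrowest bin (median 58 bp), highest in the fourth bin (24.0%, median 282 bp) and 12.3% in the widest (median 706 bp). Windows with AP-1 belonged to intervals with a median total signal of 2407 against 2678 without, and a median width of 337 against 341 bp. The share changed little with distance from genes, lying between 16.1% and 17.9% in all 6 classes from 1 to 5 kb up to more than 250 kb from a start.

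**Figure D3:**
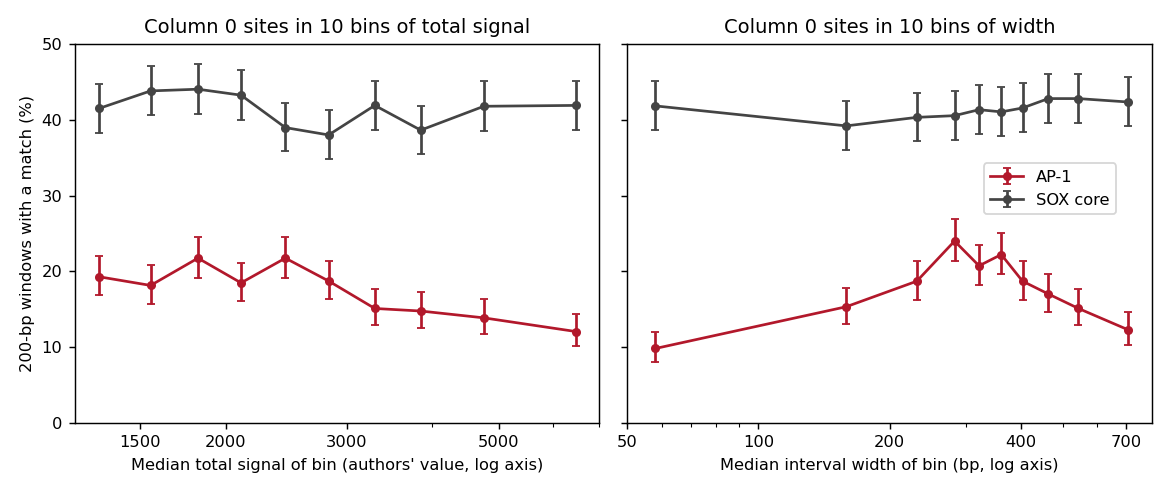
Share of 200-bp windows with an AP-1 (red) or SOX core (grey) match (y axis, %) in 10 bins of total signal (left) and of width in bp (right), plotted at the bin's median on a log axis, with Wilson 95% intervals. AP-1 goes from 19.3% to 12.05% with signal and peaks at 24.0% at a median width of 282 bp, while the SOX core stays between 38.0% and 44.03%.

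The sites lay a median of 29.3 kb from the nearest protein-coding start, with quartiles at 9.65 and 93.6 kb and the farthest at 2337 kb. The sites just outside the 1 kb limit lay at 1005, 1005 and 1007 bp, and the shared intervals of value 0 just inside it at 999, 994 and 993 bp. In introns of protein-coding genes lay 4647 (52.3%, 51.3 to 53.4), in exons 285 (3.21%) and outside genes 3946 (44.4%, 43.4 to 45.5). The share outside genes exceeded that of SOX2-only distal sites (38.5%) by 5.98 points (4.85 to 7.12). From shared distal sites with higher values it differed by 1.26 points (-0.50 to 3.01). With genes of all types the intron share was 66.7%. A start of another kind of gene, such as a lncRNA, lay within 1 kb of 262 sites (2.95%).

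The nearest other site of the same class lay a median of 43.5 kb away, and 2090 sites (23.5%) had one within 10 kb. A SOX2-only distal site lay within 10 kb of 3824 (43.1%). By chromosome, density ran from 0.58 sites per Mb on chromosome 19 to 4.73 on chromosome 6 among the autosomes, around 3.07 for all autosomes. Chromosome X had 0.28 per Mb from 44 sites. Relative to SOX2-only distal sites, the sites made up 17.6% of both classes on the autosomes (17.2 to 17.9), 20.7% on chromosomes 1 and 6, 20.1% on chromosome 13 and 10.9% on X (8.26 to 14.4).

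In the down-sampled SOX2 list, 5757 of the sites (64.8%, 63.8 to 65.8) had an overlapping interval. The overlap share was 64.3% at SOX2-only distal sites, a difference of 0.55 points (-0.55 to 1.63), and 63.1% at shared distal sites with higher values, a difference of 1.70 points (0.003 to 3.401). Within bands of width the latter was 0.96 points (-1.26 to 3.18), and its interval then included 0.

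The 4 sites of highest total signal lay in sequence that recurs in part elsewhere in the genome. The first, at chr20:29637123-29638812 (hg19, total signal 25122), and the next, at chr20:29649214-29652291 (24258), lay outside genes, with 46.1% and 48.3% of their 31-mers recurring in the genome. The third, at chr1:16926039-16926357 (19276), lay in an exon of NBPF1, a member of a duplicated gene family, with 47.8% recurring. The fourth, at chr10:127580435-127580768 (14090), lay in an intron of DHX32, a helicase gene, with 25% recurring, and was listed 6 times. Next came the AUH site printed above. Over the whole class, 118 sites (1.33%) had 50% or more recurring 31-mers and 7142 (80.4%) had 0.

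Of 20149 protein-coding genes, 2727 (13.5%) held at least 1 site in their body. Long genes led by number. GPC6, a glypican of the cell surface, held 25 sites over 1181 kb, with 31 SOX2-only distal sites. RBMS3, an RNA-binding protein, held 20 against 52, MAGI2, a synaptic scaffold, 18 against 53 and GRIK2, a kainate receptor subunit, 17 against 59. PRIM2, a primase subunit, held 17 against 7 within 334 kb, and 0 of its sites had 50% or more recurring 31-mers. The 31-mers were counted in the reference genome alone, so copies missing from it would not be seen. PTPRK, a receptor phosphatase, and IQCJ-SCHIP1 held 13 each. ARID5B, MYCBP2, FMN2, ATXN1, DGKI, ZBTB20 and ADAMTSL1 held 12 each. The readthrough gene ENSG00000283563, with 19, overlaps RBMS3.

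Per length, among genes with at least 5 sites, NBPF1 stood first with 15.6 sites per 100 kb, of which 4 of 8 had 50% or more recurring 31-mers. KITLG, the ligand of the KIT receptor, followed with 8 sites at 9.08 per 100 kb and UCHL3, a ubiquitin hydrolase, with 5 sites at 8.84. ARID5B (6.15), PRIM2 (5.09), the laminin gene LAMC1 (4.91), KANSL1 (4.604), the corepressor TLE4 (4.51), MYCBP2 (4.22) and LMO7 (4.18) came next. AP-1 matches in these leading genes ran from 0, as at the 13 sites of PTPRK and the 12 of ARID5B, to 6 of 17 at GRIK2, beside 17.4% over all sites. PRIM2 had 1 of 17, GPC6 2 of 25, LMO7 2 of 10 and LAMC1 1 of 6. NBPF1, KITLG, UCHL3, TLE4, MYCBP2 and ATXN1 also had 0. Among all genes named in these rankings, only GRIK2 and LMO7 stood above 17.4%.

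Gene lists were then examined within the gene body and 50 kb on each side. A site near several genes was counted for each, and no test was made. The Poisson intervals treat these counts as independent, so repeated counts make them too narrow. Over all protein-coding genes there were 2.94 sites and 15.5 SOX2-only distal sites per Mb, and 5514 of 20149 genes (27.4%) had a site. Genes of the fibroblast's matrix and adhesion had more. Integrins and adhesion genes had 32 sites (8.96 per Mb, exact Poisson 95% interval 6.13 to 12.6) near 12 of 17 genes, extracellular matrix genes 39 (7.58, 5.39 to 10.4) near 15 of 28, and TEAD and YAP genes 21 (7.18, 4.445 to 10.98) near 12 of 15. SOX2-only sites were also dense there, at 26.3, 25.6 and 24.6 per Mb.

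Signalling, regulatory and contractile genes had lower values per Mb than the matrix, adhesion and TEAD lists, but the intervals overlapped. PDGF and FGF genes had 17 sites near 4 of 14 genes (6.66 per Mb, 3.88 to 10.7) and TGF-beta pathway genes 21 near 10 of 17 (6.21, 3.84 to 9.49). Mesenchymal transcription factors had 33 near 14 of 25 (5.27, 3.62 to 7.39) and contractile cytoskeleton genes 13 near 8 of 20 (3.97, 2.12 to 6.79). The intervals of the PDGF and FGF, TGF-beta and mesenchymal lists lay above the 2.94 of all genes. The genes of AP-1 subunits themselves had 3 sites near 3 of 11 genes, JUN, ATF3 and BATF3 (2.39 per Mb, 0.49 to 6.97). Lists for other lineages had these values. Long neuronal genes had 35 sites near 11 of 20 genes but 1.03 per Mb (0.72 to 1.43), pluripotency genes 3 near 3 of 16 (1.52, 0.31 to 4.45) and neural progenitor genes 3 near 3 of 18 (1.36, 0.28 to 3.97). The intervals of the pluripotency and neural progenitor lists include the 2.94 of all genes. So do those of the contractile cytoskeleton and AP-1 subunit lists. SOX2-only sites stood at 4.08, 3.56 and 8.15 per Mb near the long neuronal, pluripotency and neural progenitor lists.

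**Figure D4:**
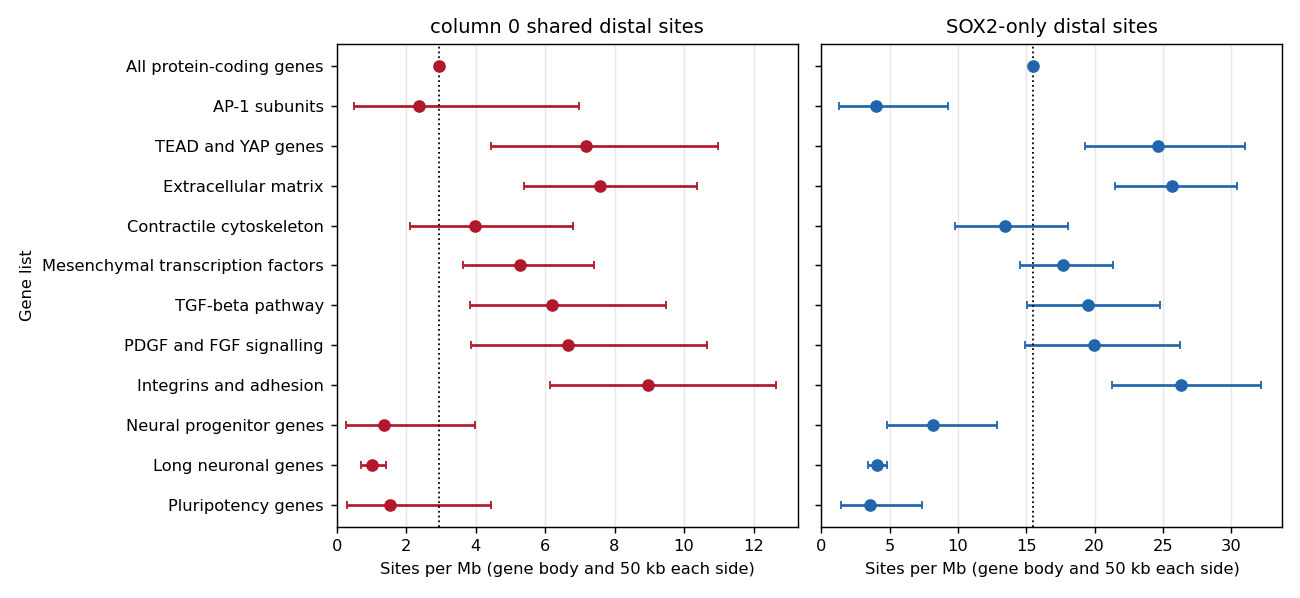
Sites per Mb (x axis) in the gene body and 50 kb on each side for each gene list (y axis), for the sites with the value 0 (left, red) and for SOX2-only distal sites (right, blue), with exact Poisson 95% intervals. Dotted lines mark all protein-coding genes (2.94 and 15.5 per Mb). Integrins and adhesion (8.96) and extracellular matrix (7.58) stand to the right of the line on the left panel and long neuronal genes (1.03) to its left.

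Genes of the lists differed in their number of sites, with no correction for length. COL5A2, a chain of type V collagen, had 8 sites, of which 5 lay in its body, and FBN2, a microfibril protein, and FN1, fibronectin, had 5 each. COL1A2, a chain of type I collagen, had 3 sites within 50 kb and none in its body. ITGA1 and ITGA2, the neighbouring collagen-binding integrin genes, had 7 and 6 and CDH2, N-cadherin, 6. TEAD1, WWTR1 (TAZ) and CCN2, a secreted YAP target, had 3 each. NFIA had 8 and PRRX1, a limb mesenchyme factor, 6. LTBP1, which holds latent TGF-beta in the matrix, and PDGFC had 6 each, and TGFB2 5. NRG1 and NRXN3 had 8 each, over 1216 and 1698 kb.

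The site of highest total signal near each list is given by its position. The matrix site lay at chr5:121425189-121425685, 11.3 kb from LOX, the collagen cross-linking oxidase, with a total signal of 5512 and both an AP-1 and a SOX core match. The mesenchymal site lay at chr2:145310920-145311429, 32.6 kb from ZEB2, with 6943 and an AP-1 match. The LTBP1 intron site at chr2:33248170-33248868 (5384) and the ATF3 intron site at chr1:212769521-212770160 (5726) each held both motifs. These 4 sites had an AP-1 match in their central windows.

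The remaining list sites had no AP-1 match in that window. They were the WWTR1 intron site at chr3:149307213-149307521 (total signal 4434), the MYH10 intron site at chr17:8514369-8514514 (6350), the site near FGF7 in an intron of FAM227B at chr15:49695111-49695147 (6696, 37 bp wide) and the site near ITGAV at chr2:187408566-187409589 (8682). For the other lineages they were the site near POU3F2 in an intron of FBXL4 at chr6:99336312-99336479 (2570), the site near NRG1 at chr8:32729962-32731246 (7616) and the site near TDGF1 in an intron of LRRC2 at chr3:46635383-46636074 (7046). The ITGAV and NRG1 sites held a SOX core match.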

How the data were processed

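CUT&RUN peak lists of replicate 1 of the SOX2 and SOX2-DBD groups were analysed, with a down-sampled SOX2 list used for positions. Total and maximum signal and the seventh column, a score of whole numbers, are deposited values whose normalization and meaning are not given in the sources used here. Per the submitters' processing notes, Bowtie2 2.3.4.1, SAMtools, bedtools 2.27.1, SEACR 1.3, deepTools 3.5.0 and build hg19 were used, with no role stated. Threshold, depth and pooling of replicates are not given, so signal was not compared between libraries. Interval positions of the authors' down-sampled list carry other values not used here.

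Shared rows were those identical in position and signal. Starts and genes came from GENCODE release 44 mapped to GRCh37, and 0 intervals reached beyond a chromosome end. Motifs were sought on both strands in 200-bp windows, and repeats measured as 31-mers occurring more than once in the genome. Shares carry Wilson and differences Newcombe 95% intervals. No p-value is given, since each group had 1 list. Named were the 5 sites of highest signal, the strongest near each gene list, the 15 genes with most sites, the 10 densest with at least 5, the first 10 hexamers, and 6 sequences, outside exons and off chromosome 8, of which 1 is not reported here. The members and lists were chosen with earlier results of these data known. Alternatives covered window size and placement, interval width, duplicates, signal, start distance, annotation, overlap, motif form and bands of width or GC content. Flanking windows with undetermined bases (4 downstream) were left out. The code was tested on simulated data. Versions were samtools 1.23.1 for sequence access, with pyfaidx 0.9.0.4, and python 3.11.15 with scipy 1.17.1, numba 0.67.0 and pandas 2.3.3 for the counts and intervals.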

Additional observations from a re-analysis of the deposited data

How the results depend on the processing

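No paired analysis was possible because the lists analysed are those of replicate 1 alone, and for that reason no replicate could be left out either. Of 82 alternative values, 59 stayed within the interval of the reported value (for the number of sites, within 1.5 times of it), 21 moved and 2 reversed. Both reversed values were of the AP-1 difference from shared distal sites with a value of 1 or more, -1.34 points with only the value-0 class restricted to sites above its median signal, and -3.49 points over whole intervals. With both classes restricted by that median it was 0.83 points. With 100-bp, 400-bp and maximum-signal windows the AP-1 share was 9.56%, 27.2% and 18.2% and the SOX core share 23.6%, 64.6% and 44.9%. Sites above the median signal had an AP-1 share of 14.9%, 11.8 points over downstream, and a median width of 425 bp. With 100-bp and 400-bp windows the AP-1 difference was 8.10 and 21.2 points from downstream and 6.30 and 15.6 points from SOX2-only distal sites. The latter was 8.57 points in bands of width and 8.75 points in bands of width and GC content. A fixed A before the AP-1 heptamer gave 11.8% and the SOX heptamer 12.4%. The intron share was 48.2% beyond 5 kb of a start and 66.7% with genes of all types. The median width was 349 bp from 50 bp upward and 346 bp with the same signal values counted once. The causes were not tested. The settings on recurrent 31-mers, on whole intervals, on both classes above the median signal, on SOX2-only sites without the octamers and on width with GC content were chosen after the data were seen. The unknown depth limits what the length of a list can show.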

Other observations

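Some sites were listed more than once. Of the 8878 sites, 1016 (11.4%, 10.8 to 12.1) stood in the SOX2 list as repeated identical rows, up to 6 times, against 8.45% of shared distal sites with higher values, a difference of 2.997 points (1.95 to 4.02), and 0 of 41799 SOX2-only distal sites. The AP-1 share was 13.3% at the repeated and 17.9% at the other sites. Signal values were shared with another site of the class in 410 cases, so that 8670 distinct signal records stood behind the sites. There were 377 sites under 50 bp wide, of which 8 spanned 1 bp. What the repeated rows stand for is not stated.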
